A study of Mus musculus with 26 samples.

Results

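The 10 genes described here, *Piwil1*, *Piwil2*, *Piwil4*, *Ddx4*, *Mael*, *Mov10l1*, *Tdrd1*, *Tdrd6*, *Tdrd7* and *Tdrd9*, are core genes of the PIWI-interacting RNA (piRNA) pathway. They were taken by symbol, and all 10 were found among the 23337 genes of the count tables. Their RNA was followed in the initial segment (IS) and the caput, the first parts of the epididymis, of 5 ArKI and 5 WT mice, and in the testis of 3 ArKI and 3 WT mice, 26 samples in all. ArKI mice carry a constitutive knockin, and WT littermates of the same C57Bl/6N and 129 hybrid strain served as controls at 3 months of age. The mutation is in every cell, so an effect on a germ cell and an effect on the epithelium around it cannot be told apart in whole tissue. The depth was 5829074 to 9770625 counts per sample in the IS, 4125768 to 11913469 in the caput and 14077013 to 21376604 in the testis, and the IS and caput were sequenced in one run and the testis in another, which leaves tissue and run confounded (they cannot be told apart).

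piRNAs are small RNAs of animal germ cells that guide PIWI proteins, relatives of the Argonaute proteins, to transposon and other transcripts. In the mouse, PIWIL2 (MILI) and PIWIL4 (MIWI2) act in fetal and newborn germ cells, where piRNAs direct DNA methylation of transposons, and PIWIL1 (MIWI) and PIWIL2 act in meiotic spermatocytes and round spermatids of the adult. The helicase MOV10L1 passes piRNA precursors to PIWI proteins, and DDX4 (the mouse vasa protein), MAEL and the Tudor domain proteins TDRD1, TDRD6, TDRD7 and TDRD9 assemble the germ granules in which this takes place.

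The promoters of 8 members were found in RefSeq (GRCm38.p6), and those of *Piwil2* and *Tdrd6* were not analysed here. The 250 bases before the start site are shown for 3 members that were high in the testis and for *Piwil4*, which was low there, each 5′ to 3′ on the strand of its gene. Capitals mark the E-box word CACGTG and the MYB word CAACTG with its variants that have T as the first letter, G as the fifth letter or both, all searched on both strands. These words overlap each other nowhere in the 4 sequences.
*Mael* (chr1:166238745-166238994, minus strand): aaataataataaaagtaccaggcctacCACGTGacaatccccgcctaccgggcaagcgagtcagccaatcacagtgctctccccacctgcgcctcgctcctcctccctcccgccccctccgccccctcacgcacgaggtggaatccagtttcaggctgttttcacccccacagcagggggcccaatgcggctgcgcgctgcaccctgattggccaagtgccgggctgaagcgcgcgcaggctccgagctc
*Ddx4* (chr13:112652311-112652560, minus strand): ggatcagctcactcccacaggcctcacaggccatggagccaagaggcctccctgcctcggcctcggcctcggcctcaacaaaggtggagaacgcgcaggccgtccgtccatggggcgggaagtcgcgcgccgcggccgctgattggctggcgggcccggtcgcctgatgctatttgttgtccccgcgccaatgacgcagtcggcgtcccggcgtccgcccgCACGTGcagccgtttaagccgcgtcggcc
*Piwil1* (chr5:128735996-128736245, plus strand): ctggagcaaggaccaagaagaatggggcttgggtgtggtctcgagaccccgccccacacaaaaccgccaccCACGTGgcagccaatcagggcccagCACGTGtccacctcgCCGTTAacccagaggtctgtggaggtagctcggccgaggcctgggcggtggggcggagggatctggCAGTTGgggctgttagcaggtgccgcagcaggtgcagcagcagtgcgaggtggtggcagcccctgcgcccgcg
*Piwil4* (chr9:14740673-14740922, minus strand): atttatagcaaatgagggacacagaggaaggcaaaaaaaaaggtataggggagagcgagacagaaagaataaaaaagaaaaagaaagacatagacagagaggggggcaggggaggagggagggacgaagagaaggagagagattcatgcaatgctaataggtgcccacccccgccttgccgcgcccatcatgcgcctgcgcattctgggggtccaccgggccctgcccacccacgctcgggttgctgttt
The E-box word lay before at least 1 listed start site of 6 of the 8 members, *Piwil1*, *Ddx4*, *Mael*, *Mov10l1*, *Tdrd1* and *Tdrd9*, and counted in the same way before at least 1 start site of 6.86% of 27025 genes. By single promoters it lay in 7 of the 13 of the members, in 6.021% of all 32851 and in 9.181% of the 14127 with at least 8 CpG. Its first base lay 29 bases before the start of *Ddx4*, 223 before that of *Mael*, and 179 and 154 before that of *Piwil1*. A MYB word lay before 3 members, *Piwil1*, *Mov10l1* and *Tdrd7*, and before 26.28% of all genes. By single promoters it lay in 4 of the 13 and in 23.66% of all. The *Ddx4* sequence held 31 CpG, that of *Mov10l1* 19, that of *Mael* 18, that of *Piwil1* 16 and that of *Piwil4* 10, where the median promoter held 6. The words were chosen after the sequences had been seen, and a match is a description and not a binding site.

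In the WT testis 9 of the 10 members were abundant and *Piwil4* was near the limit of detection. Library-scaled counts (CPM, scaled by edgeR's TMM method) were divided by exon length in kilobases to give RPKM, the only scale on which members are compared with each other here. *Mael* had the highest level, 905.6 ± 36.7 RPKM (SD, n = 3), in a transcript of 1546 exon bases. *Ddx4* followed at 257.8 ± 1.68 RPKM, *Tdrd6*, a scaffold of the chromatoid body of spermatids, at 177.6 ± 7.24 RPKM and *Piwil1* at 164.3 ± 1.14 RPKM. Each of these 4 stood apart from the next, with no overlap between the samples. This order holds for the exon lengths used, and the spread between samples does not measure error in them. *Tdrd7* stood at 120.1 ± 3.66 RPKM and *Piwil2* at 60.8 ± 1.77 RPKM. *Tdrd1*, a partner of PIWIL2, at 52.8 ± 1.61 RPKM and *Tdrd9*, a helicase that acts with PIWIL4, at 50.1 ± 1.04 RPKM overlapped and could not be ordered. *Mov10l1* was the lowest of the abundant members at 34.2 ± 0.964 RPKM, and *Piwil4* stood at 0.309 ± 0.174 RPKM, with 6, 15 and 8 counts in the 3 WT samples. The same samples held the RNA of germ cells in quantity. The summed level of 8 spermatocyte markers was 1286 to 1326 CPM and that of 8 round spermatid markers 1597 to 1944 CPM.

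**Figure D1:**
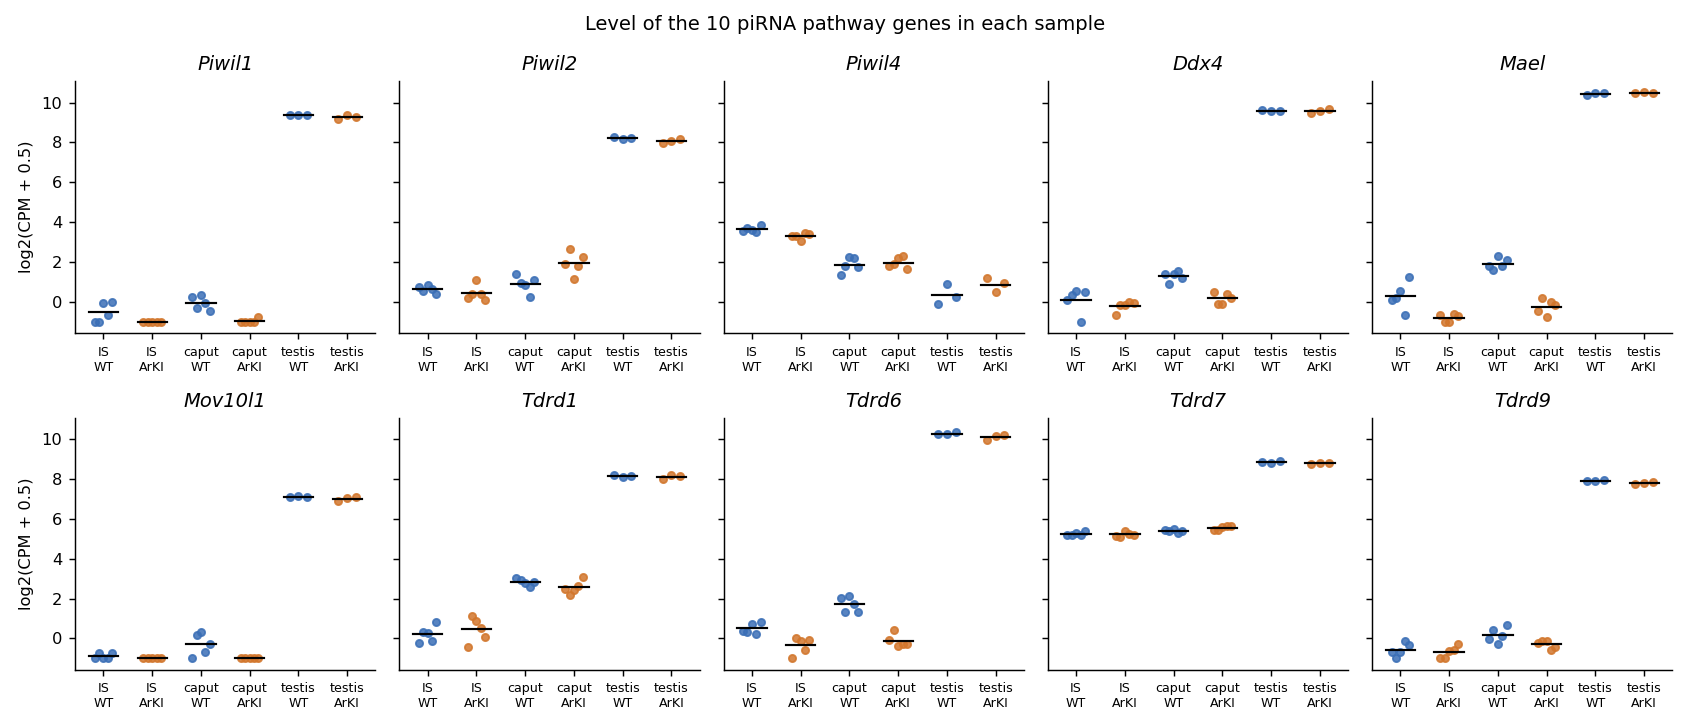
Level of each of the 10 members in every sample, as log2(CPM + 0.5), with WT in blue, ArKI in orange and a black line at the group mean. In 9 panels the testis samples stand far above both epididymal segments, and *Piwil4* has the opposite order.

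The epididymis held far less of this RNA. Compared with the IS, all 10 members differed in the WT testis (false discovery rate, FDR, below 0.01 with more than 2-fold change, edgeR quasi-likelihood test, Benjamini-Hochberg adjusted over 16402 genes), 9 of them higher and *Piwil4* lower. Of all tested genes 38.5% were higher and 30.9% lower. In the IS 8 of the members did not reach the filter on low counts, and 3 of these, *Piwil1*, *Mov10l1* and *Tdrd9*, did not reach it in the caput either. These members had to be high elsewhere to be tested, so their count is given as a description. Compared with the caput, the same 9 members were higher and *Piwil4* lower, where 38.1% of all tested genes were higher and 31.2% lower. The members had a median log2 difference of 10.29 to the IS and of 8.55 to the caput, and all tested genes one of 0.19 and 0.16. Scaling by library size alone moved the latter 2 medians to -0.22 and -0.23, and the members' calls and directions stayed as they were.

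*Piwil1*, the PIWI protein of meiotic and haploid cells, had the largest log2 difference between testis and caput, 10.40 (SE 0.144, adjusted p = 1.46e-22). Its counts were 9093, 7508 and 7689 in the WT testis and 7, 3, 7, 4 and 2 in the WT caput. In the WT IS it had 10 counts in the 5 samples together. *Tdrd6* (8.81), *Mael* (8.76), *Ddx4* (8.68), *Mov10l1* (8.58) and *Tdrd9* (8.53) lay within 0.3 of each other on the log2 scale. *Mov10l1* had 5102 counts in the WT testis and 2 in the WT IS, a ratio per library size of 3070 with an exact interval of 849 to 2.54e+04 that covers counting error only. *Piwil2* differed by 7.70 and *Tdrd1* by 5.45.

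*Tdrd7* was the member with the smallest excess in the testis, 3.51 on the log2 scale against the caput (SE 0.0540, adjusted p = 1.59e-25). TDRD7 is also known outside the germ line, in the lens. It had 274 to 420 counts in every WT IS sample and 333 to 448 in every WT caput sample, and stood first among the members in both segments, at 9.81 ± 0.549 RPKM in the IS and 10.8 ± 0.598 RPKM in the caput (SD, n = 5). In percent of the WT testis, the WT caput held 9.003% for *Tdrd7*, 2.329% for *Tdrd1*, 0.4815% for *Piwil2* and 0.07346% for *Piwil1*. *Tdrd9* (0.2742%), *Mov10l1* (0.2636%), *Ddx4* (0.2495%), *Mael* (0.2377%) and *Tdrd6* (0.2275%) lay close to each other. The 8 markers of spermatocytes had a median of 0.1902% in the WT caput, those of round spermatids 0.2957% and the 9 genes of elongating spermatids and sperm 0.7821%.

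*Piwil4* ran against the other members. Its log2 difference between WT testis and WT IS was -3.86 (SE 0.258, adjusted p = 7.27e-13), and between WT testis and WT caput -1.97 (SE 0.309, adjusted p = 2.41e-06). The 5 WT IS samples had 11.4, 12.4, 11.8, 10.9 and 13.8 CPM, the 5 WT caput samples 2.01, 2.97, 4.27, 4.13 and 2.87 CPM and the 3 WT testis samples 0.432, 1.32 and 0.688 CPM. The 3 tissues did not overlap. *Piwil4* lies on chromosome 9 (14696230 to 14740733, minus strand, mm10), and the antisense gene *Gm10706* shares 118 of its 2637 exon bases. It is not given in the sources used here whether counting used the strand, so reads of the 2 genes may not be told apart on these bases. No other member shares exon bases with a neighbour.

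**Figure D2:**
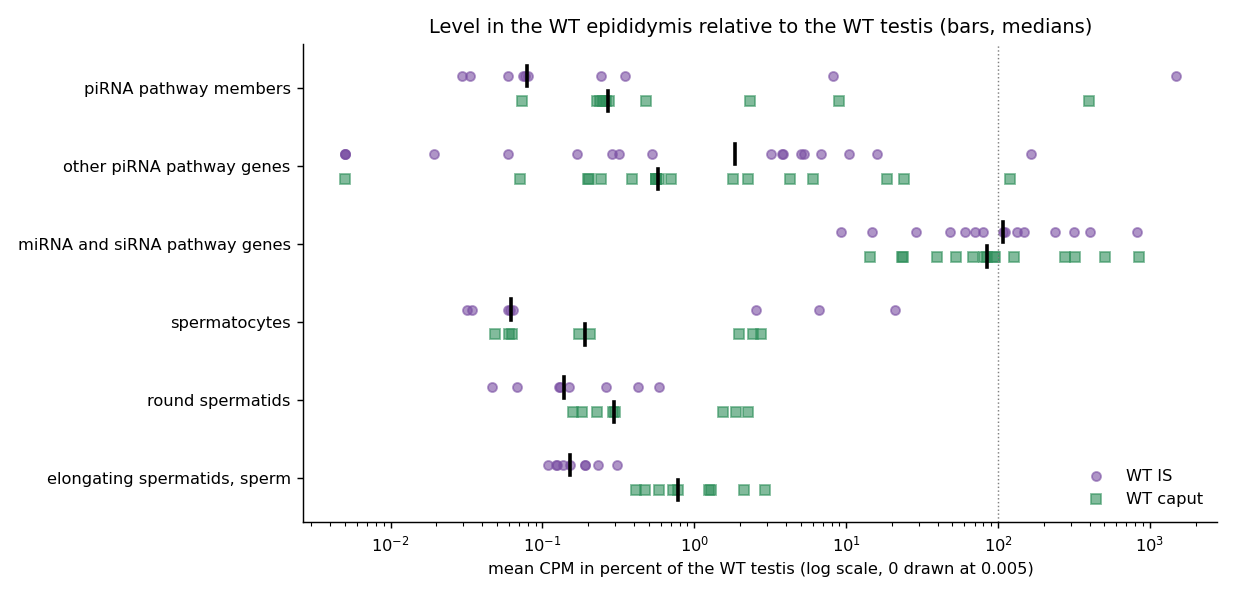
Mean CPM of each gene in the WT IS (circles, n = 5) and the WT caput (squares, n = 5) in percent of the WT testis (n = 3), on a log axis with values of 0 drawn at 0.005, and bars at the medians. The members have medians of 0.0788% (IS) and 0.2689% (caput), near the germ cell markers, while the microRNA pathway genes have medians of 107.2% and 84.39% and run from 9.177% to 850.8%, and *Piwil4* is the member on the right.

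Between the 2 epididymal segments, which were sequenced in one run, 6 members were higher in the caput than in the IS of WT mice and *Piwil4* was lower by the same rule. Of all tested genes 11.4% were higher and 9.24% lower. *Tdrd1* had the largest difference, 3.21 on the log2 scale (SE 0.1995, adjusted p = 1.35e-12), from 3, 7, 6, 3 and 13 counts in the IS to 81, 71, 58, 47 and 61 in the caput. *Mov10l1* (2.70), *Mael* (1.91), *Tdrd9* (1.81), *Tdrd6* (1.59) and *Ddx4* (1.56) were also higher in the caput, and *Piwil4* was lower by 1.90. *Piwil1* (1.08, adjusted p = 0.0964), *Piwil2* (0.50, adjusted p = 0.0906) and *Tdrd7* (0.15, adjusted p = 0.0186) did not pass. The call of *Mov10l1* rests on 17 counts against 2 (ratio 7.995, exact counting interval 1.9 to 71.3) and was lost without any one of IS replicates 1, 3, 4 and 5 or caput replicates 2, 3 and 5, with log2 differences of 2.26 to 3.15. The call was also lost with limma (1.66, adjusted p = 0.0405) and with the replicate number as a block (2.71, adjusted p = 0.0146 by edgeR). All 9 genes of elongating spermatids and sperm were higher in the caput too, with a median log2 difference of 2.48 and no overlap between the segments. The part of sperm RNA in the members' differences was not tested. In whole tissue fewer cells of a type and less RNA per cell cannot be told apart.

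The genotype comparison asked how the knockin changes expression in each tissue. In the caput, *Mael*, *Tdrd6* and *Ddx4* were downregulated in ArKI mice and *Piwil2* was upregulated by the rule of FDR and fold given above. These are 3 falls and 1 rise among the 7 members that passed the filter on low counts, where 2.55% of all tested genes fell and 2.43% rose. *Ddx4*, *Mael* and *Tdrd6* passed that filter only through their WT level, so they had to differ to be tested and lower, and their count is given as a description. *Piwil2*, which reached it in 4 WT and 5 ArKI samples where 5 were needed, was in turn tested through its ArKI level. The p-values of these 4 members hold within that choice of genes. With every gene of 1 count or more tested, a filter on the total over both groups, the adjusted p was 4.9e-08 for *Mael*, 5e-07 for *Tdrd6*, 4.9e-04 for *Ddx4* and 0.00483 for *Piwil2* (all by edgeR).

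*Mael*, a germ granule protein needed for transposon silencing, had 31, 25, 40, 26 and 34 counts in the WT caput and 2, 3, 1, 6 and 5 in the ArKI caput. The groups stood far apart. The levels were 3.33 ± 0.731 and 0.364 ± 0.214 CPM (SD, n = 5), a log2 fold change of -3.26 (SE 0.333, adjusted p = 1.4e-06 by edgeR). *Tdrd6* had 37, 20, 36, 24 and 18 counts in WT and 4, 4, 3, 4 and 4 in ArKI. Its log2 fold change was -2.87 (SE 0.339, adjusted p = 6.95e-06 by edgeR), with no overlap. *Ddx4* had 22, 13, 19, 21 and 16 counts in WT and 8, 2, 5, 10 and 8 in ArKI. It fell by 1.56 on the log2 scale (SE 0.288, adjusted p = 5.65e-04 by edgeR), again with no overlap in CPM. Among the tested genes 19.8% had groups that did not overlap, and 20.1% with the caput samples scaled by themselves.

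*Piwil2* (MILI) moved the other way. It had 2.10, 1.43, 1.31, 0.689 and 1.66 CPM in the WT caput and 3.18, 5.68, 1.69, 3.00 and 4.22 CPM in the ArKI caput. ArKI replicate 3 lay inside the WT range. The log2 fold change was 1.21 (SE 0.320, adjusted p = 0.00922 by edgeR). This call lay close to the threshold and was lost without any one of WT replicates 2, 3, 4 and 5 or ArKI replicates 1, 2, 4 and 5, with log2 fold changes of 1.04 to 1.27 and adjusted p of 0.0115 to 0.0287.

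The other members tested in the caput did not pass. *Tdrd1* had 6.70 ± 0.900 CPM in WT and 5.57 ± 1.55 CPM in ArKI (log2 fold change -0.24, 95% confidence interval -0.59 to 0.12, adjusted p = 0.332 by edgeR). *Piwil4* had 3.25 ± 0.948 and 3.43 ± 0.765 CPM (log2 fold change 0.09, interval -0.38 to 0.57). *Tdrd7* had 41.7 ± 2.31 and 46.5 ± 3.05 CPM (log2 fold change 0.16, SE 0.0585, adjusted p = 0.0543 by edgeR).

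The members below the filter in the caput were compared by exact two-sided permutation tests of log2(CPM + 0.5), which with 5 samples a group can give no p below 0.0079. *Piwil1* had 7, 3, 7, 4 and 2 counts in WT and 0, 0, 0, 0 and 1 in ArKI, with no overlap (p = 0.0079, exact permutation test, 0.0357 adjusted over the 9 such tests). Its ratio of WT to ArKI was 24.6, with an exact counting interval of 4 to 1010. *Mov10l1* had 0, 6, 7, 1 and 3 counts in WT and none in ArKI (p = 0.0476, exact permutation test, adjusted 0.0857), and was at least 6.07-fold lower in ArKI when the ArKI group is set at 3 counts. *Tdrd9* had 5, 8, 3, 5 and 10 counts in WT and 3, 2, 5, 2 and 3 in ArKI (p = 0.0397, exact permutation test, adjusted 0.0857).

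The RNA of sperm moved with these falls. The 9 genes of elongating spermatids and sperm all fell in the ArKI caput, by a median of -3.09 on the log2 scale with no overlap between groups. Their summed level was 240.8 to 379.3 CPM in WT and 36.6 to 104.4 CPM in ArKI. Among them *Prm1*, a protamine of condensed sperm chromatin, had a log2 fold change of -3.34 and *Odf1*, a tail protein, of -1.10. The summed level of the 8 round spermatid markers was 7.11 to 9.86 CPM in WT and 3.07 to 4.92 CPM in ArKI. The 8 spermatocyte markers summed to 3.68 to 5.45 CPM in WT and 2.31 to 7.05 CPM in ArKI, a sum that hides opposite values. *Spo11* made up much of it and rose from 92 counts in WT to 200 in ArKI (log2 fold change 0.97, adjusted p = 0.0269 by edgeR), the only one of the 8 to pass the filter. *Sycp2* had 47 counts in WT and 6 in ArKI, *Ccna1* 15 and 2, *Sycp1* 8 and 0, *Sycp3* 4 and 2 and *Hormad1* 2 and 0, while *Dmc1* had 34 and 29 and *4930528F23Rik*, the older symbol of *Meiob*, 22 and 26. In percent of the testis of the same genotype the median of the 8 was 0.1902% in WT and 0.01968% in ArKI. The spermatogonial list does not mark germ cells here, since its genes *Gfra1* and *Etv5* are abundant in the epididymis, while *Dmrt1* and *Stra8* had at most 1 count in all 5 samples of any epididymal group. The part of sperm RNA in the falls of *Mael*, *Tdrd6* and *Ddx4* was not tested.

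**Figure D3:**
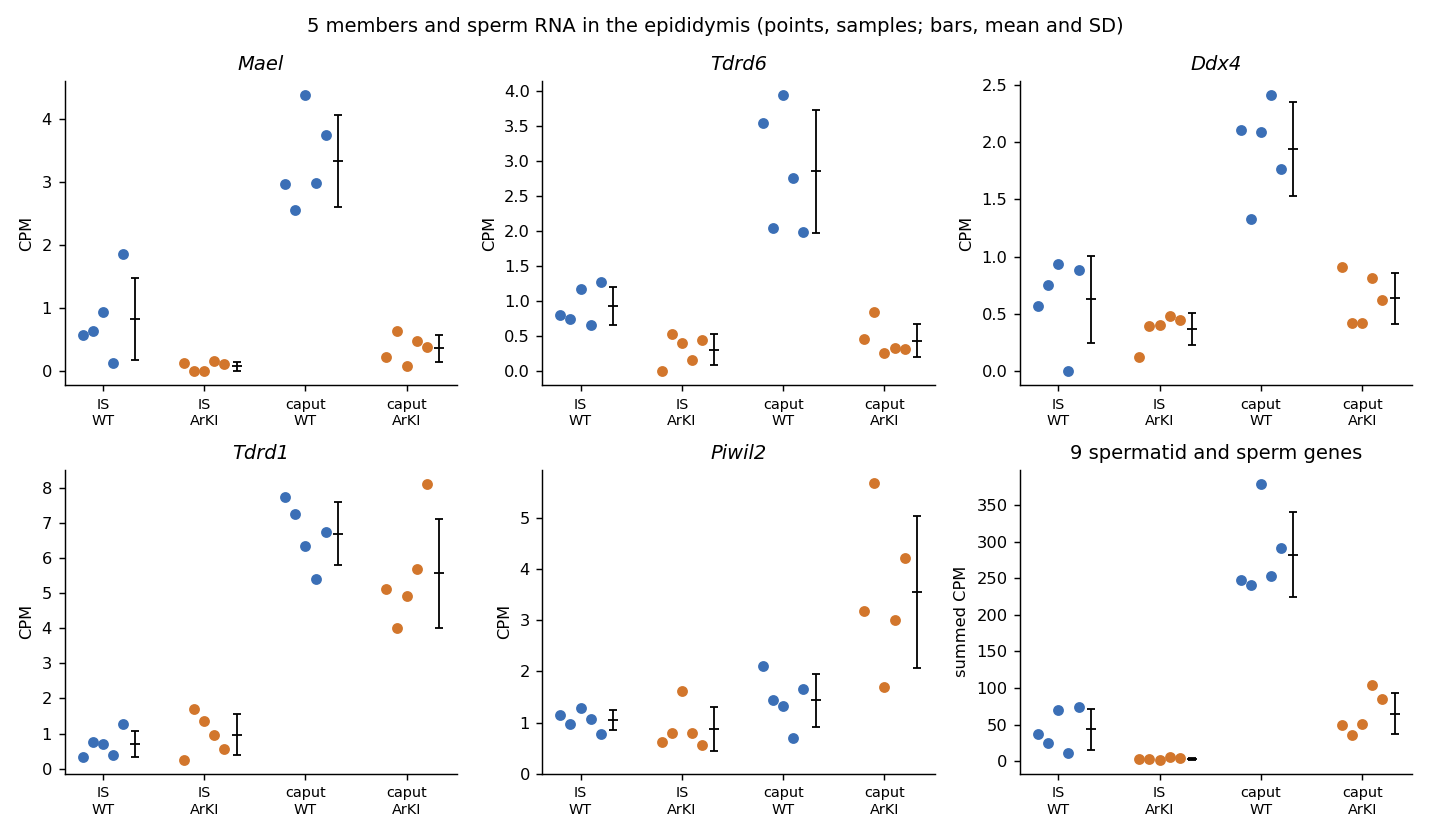
CPM of 5 members and the summed CPM of 9 spermatid and sperm genes in each epididymal sample (points, WT in blue and ArKI in orange, n = 5 a group), with the mean and SD to the right of each group. *Mael*, *Tdrd6* and *Ddx4* fall in the ArKI caput together with the sperm genes, *Tdrd1* does not pass the test, and *Piwil2* is higher.

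In the IS, 2 members passed the filter on low counts and neither met that rule by edgeR, limma or DESeq2, where 4.04% of all tested genes were called. *Piwil4* passed an FDR below 0.05 with no fold limit, as did 14.6% of all tested genes in the same direction, and 1 of the 2 had an unadjusted p below 0.05, as did 39.7% of all tested genes. It had 9.40, 9.37, 7.83, 10.4 and 10.2 CPM in ArKI, all below the lowest WT sample at 10.9 CPM. Among the genes tested in the IS 20.1% had groups that did not overlap. The log2 fold change of *Piwil4* was -0.36 (SE 0.111, adjusted p = 0.0193 by edgeR). *Piwil4* did not pass it without ArKI replicate 3 (adjusted p = 0.0534), without WT replicate 5 (0.0605) or with all epididymal groups in one fit (0.0653, all by edgeR). Markers of some other cell types were lower there as well, and other lists were mixed or higher. All 4 smooth muscle genes passed an FDR below 0.05 with no overlap (median log2 fold change -0.98, summed level 440.5 to 484.4 CPM in WT and 187.9 to 340.2 CPM in ArKI). At that FDR 3 of 4 basal cell genes were lower (median -0.33, 317.4 to 363.2 and 251.9 to 278.4 CPM), and 2 of the 4 had no overlap. Of 6 tested genes of macrophages and T cells, 3 were lower (median -0.32, 128.3 to 174.9 and 105.6 to 141.2 CPM), and 1 of the 6 had no overlap. Of 9 principal cell genes 5 were lower and 2 higher at that FDR. Of 4 tested genes of the Sertoli cell list 1 was lower and 3 higher. All 3 tested genes of the Leydig cell list were above 0, 1 of them at that FDR. The part of cell makeup in the fall of *Piwil4* was not tested. *Tdrd7* stood at 37.8 ± 2.12 CPM in WT and 37.1 ± 2.82 CPM in ArKI (log2 fold change -0.03, interval -0.17 to 0.10).

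Of the 8 members below the filter in the IS, *Mael* had 5, 6, 8, 1 and 19 counts in WT and 1, 0, 0, 1 and 1 in ArKI (p = 0.0159, exact permutation test, 0.0476 adjusted over 9 tests). The WT to ArKI ratio was 11.2, with an exact counting interval of 3.56 to 56.7. *Tdrd6* had 7, 7, 10, 5 and 13 counts in WT and 0, 4, 3, 1 and 4 in ArKI, with no overlap (p = 0.0079, exact permutation test, adjusted 0.0357). *Ddx4* (29 and 14 counts in all), *Piwil2* (46 and 33) and *Tdrd1* (32 and 36) gave exact permutation p of 0.357, 0.310 and 0.468. *Piwil1* had 10 counts in WT and none in ArKI (p = 0.167, exact permutation test). *Mov10l1* (2 and 0) and *Tdrd9* (8 and 5) had at most 3 counts in every sample and were not tested.

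Sperm RNA moved with *Mael* here too. The sperm genes summed to 36.8, 25.4, 70.7, 11.2 and 73.8 CPM in the 5 WT IS samples and to 2.03 to 5.92 CPM in ArKI. WT replicate 4 was the lowest and WT replicate 5 the highest for both *Mael* and the sperm genes, and *Ddx4* had no count in WT replicate 4. The ArKI caput did not show this match. Its replicate 2 was the highest for *Mael* (0.631 CPM, 3 counts) and the lowest for the sperm genes (36.6 CPM). The part of sperm RNA in the fall of *Mael* in the IS was not tested. With all 20 epididymal samples in one fit, 7 members could be tested in the IS and *Mael* was called, with a log2 fold change of -3.26 (SE 0.715, adjusted p = 0.00107 by edgeR). *Mael* thus had a log2 fold change of -3.26 in the IS and -3.25 in the caput in that fit. For *Tdrd6* it was -1.55 and -2.87, and for *Ddx4* -0.80 and -1.56.

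Whether the ArKI effect differed between the segments was tested as an interaction in that fit. By the study's methods both segments came from 5 ArKI and 5 WT mice, and the labels do not name mice. Samples of the 2 segments may share mice and were treated as independent. None of the 7 members passed an FDR below 0.01 by edgeR, limma or DESeq2, where 8.18% of 14329 genes did, and 2 had an unadjusted p below 0.05, as did 27.8% of all genes. *Piwil2* passed an FDR below 0.05, as did 15.1% of all genes, with a caput effect 1.47 higher than the IS effect on the log2 scale (SE 0.501, adjusted p = 0.0465 by edgeR). The filter on low counts needed 5 samples in this fit. *Piwil2* reached it in 5 ArKI caput, 4 WT caput, 2 WT IS and 1 ArKI IS samples. *Mael*, *Tdrd6* and *Ddx4* had fewer than 5 such samples outside the WT caput, and so were tested through their WT caput level. The pass of *Piwil2* was lost with limma (adjusted p = 0.0742), with the replicate block (0.0546 by edgeR), with library size only (0.0537 by edgeR) and in 16 of the 20 fits that left out 1 sample (adjusted p up to 0.0918 by edgeR), and was kept without IS ArKI replicate 3, IS WT replicate 5, caput WT replicate 1 or caput ArKI replicate 3. It was also kept with RLE scaling (0.0468 by edgeR), with every gene of 1 count (0.0483 by edgeR) and with DESeq2 (0.0365). The adjusted p was 0.953 for *Mael*, 0.20 for *Tdrd6* and 0.486 for *Ddx4*.

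**Figure D4:**
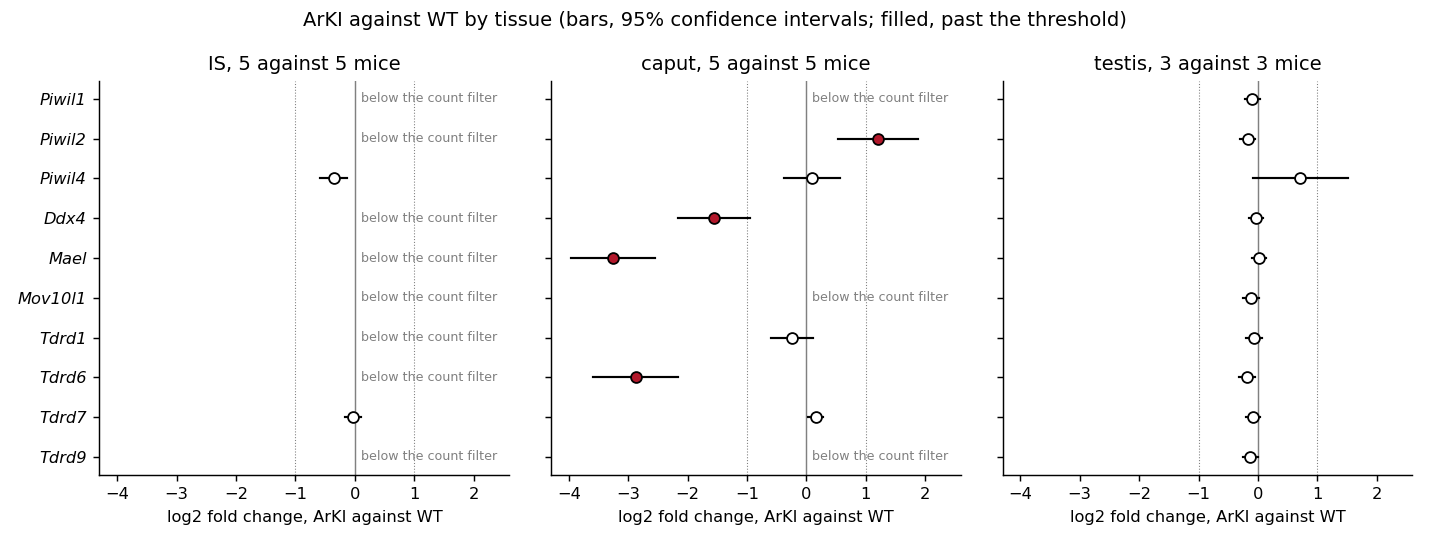
Log2 fold change of each member in ArKI against WT, with 95% confidence intervals, in the IS, caput and testis. Filled points passed the threshold of that tissue, open points did not, dotted lines mark a fold change of 2, and 8 members (IS) and 3 members (caput) had too few counts for the fit. The 4 called members are all in the caput, and the intervals in the testis are narrow except that of *Piwil4*.

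In the testis all 10 members were tested, and none was called (FDR below 0.2 with more than 2-fold change) by edgeR, limma or DESeq2, where 0.833% of 15838 genes were called. None passed an FDR below 0.05, and 3 had an unadjusted p below 0.05, as did 13.1% of all tested genes. The log2 fold changes of the 9 abundant members lay between -0.18 and 0.02. *Mael* had 1335, 1440 and 1424 CPM in WT and 1437, 1457 and 1431 CPM in ArKI, and its 95% confidence interval of -0.10 to 0.14 leaves out the fall seen in the caput. *Ddx4* had 781, 771 and 778 CPM in WT and 725, 776 and 815 CPM in ArKI, with an interval of -0.16 to 0.09. *Tdrd6* had 1235, 1215 and 1312 CPM in WT and 1015, 1161 and 1199 CPM in ArKI (log2 fold change -0.18, SE 0.0650, adjusted p = 0.207 by edgeR). The highest ArKI sample lay just below the lowest WT sample.

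*Piwil2* had 307, 289 and 300 CPM in the WT testis and 253, 270 and 285 CPM in the ArKI testis, a log2 fold change of -0.17 (SE 0.0629, adjusted p = 0.209 by edgeR). These 2 groups did not overlap either. *Piwil4* had 6, 15 and 8 counts in WT and 23, 15 and 20 in ArKI, a log2 fold change of 0.71 (SE 0.386, adjusted p = 0.449 by edgeR). Without WT replicate 2 it became 1.22 with an adjusted p of 0.166 and passed the testis threshold. The remaining members, *Piwil1* (-0.10), *Mov10l1* (-0.12), *Tdrd1* (-0.07), *Tdrd7* (-0.08) and *Tdrd9* (-0.13), had adjusted p of 0.367 to 0.707.

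On these CPM the groups did not overlap in 3 of the 10 members in the testis, *Piwil2*, *Tdrd6* and *Tdrd9*, each lower in ArKI, where 17.4% of all tested genes had groups that did not overlap. When the testis samples were scaled by themselves, *Piwil1* and *Tdrd7* joined them, which made 5 of the 10, where the share of all tested genes was 17.8%. The members share their samples and are not independent of each other, and the median log2 fold change was -0.09 for the members and 0.00 for all tested genes. Exon length moved with these values. Across 15665 genes exon length and the testis fold change had a Spearman rho of -0.337, given as a description across genes that share all samples. The fifth of the genes with the shortest exon lengths, up to 1580 bases, had a median of 0.08 and the fifth with the longest, from 5013 bases, a median of -0.08. *Mael*, the shortest member, had 0.02, and *Tdrd6*, the longest at 7062 bases, had -0.18, but *Tdrd1*, the next longest at 5443 bases, had -0.07. When a smooth trend on exon length was taken out of each sample, the 9 abundant members lay between -0.13 and -0.02, with *Piwil2* at -0.13 and *Tdrd6* at -0.10, and all 9 were below 0. Markers of cell types moved in the testis too. The spermatocyte markers had a median log2 fold change of -0.01, the round spermatid markers 0.09 and the sperm genes 0.04, with none past an FDR below 0.05. Of the 8 spermatogonial genes *Zbtb16* was higher (0.73, adjusted p = 0.00833 by edgeR) and *Kit* lower (-0.46, adjusted p = 0.00486 by edgeR). The 7 Leydig cell markers summed to 752.6 to 971.5 CPM in WT and 1159 to 1220 CPM in ArKI, with a median log2 fold change of 0.02, 4 of them above 0 and 3 below. *Cyp11a1* (0.92) and *Cyp17a1* (0.59) passed an FDR below 0.05, and *Hsd3b1* stood at -0.89 (adjusted p = 0.289 by edgeR). At that rule 1 smooth muscle gene of 4 was higher and 1 epididymal gene of 7 tested lower. The part of exon length or of cell makeup in the members' values was not tested.

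**Figure D5:**
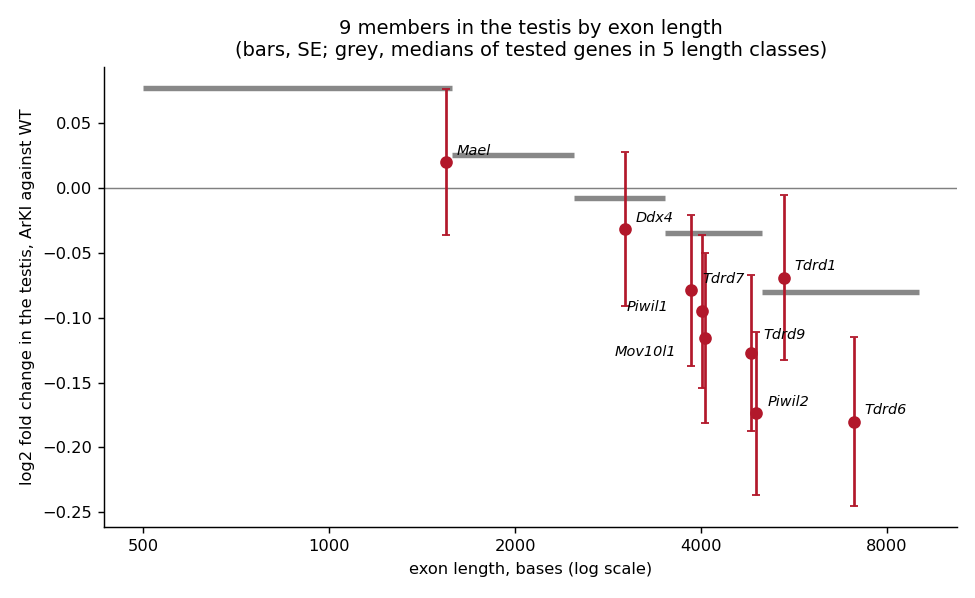
Log2 fold change in the testis (ArKI against WT, 3 samples each, bars for SE) of the 9 abundant members against exon length on a log axis. Grey bars are the medians of all tested genes in 5 classes of exon length, drawn from 500 to 9000 bases. The medians of all genes fall with length, *Mael* is the shortest and highest member and *Tdrd6* the longest and lowest, *Tdrd1* lies above several shorter members, and *Piwil4* (0.71 at 2637 bases) is left out of the plot.

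Of 20 other piRNA pathway genes 18 were in the count tables. In the WT testis 17 of the 18 were higher than in either segment by the rule used for the members, where 38.5% (IS) and 38.1% (caput) of all tested genes were. Of the 18, 11 reached the filter on low counts in the testis alone, so this count is a description too. The median log2 differences were 6.25 to the IS, or 5.95 with the 3 genes without a count there set at 3 counts over the group, and 7.43 to the caput either way. *Tex19.1* had 579 counts in the WT testis and none in the WT caput, at least a 247-fold difference with the caput set at 3 counts over the group. *Fkbp6*, a co-chaperone in PIWI loading, had 2200 counts against 2 in the caput, a ratio of 1.41e+03 with an exact counting interval of 389 to 1.16e+04. *Gtsf1*, a partner of PIWI proteins, differed by 8.996 on the log2 scale. *Prmt5*, the arginine methyltransferase whose marks Tudor domains bind, works in all cells and differed by -0.22, *Morc1* by 2.09 and *Exd1* by 2.47. In the ArKI caput *Tdrd5*, a Tudor domain gene of the spermatid granule, had 14, 5, 11, 18 and 9 counts against 20, 30, 34, 23 and 22 in WT, a log2 fold change of -1.27 (SE 0.268, adjusted p = 0.00167 by edgeR). It reached the filter in 5 WT and 3 ArKI samples, and so was tested through its WT level, as *Mael*, *Tdrd6* and *Ddx4* were. Unlike *Mael*, *Tdrd6* and *Ddx4*, *Tdrd5* was higher in the WT IS than in the WT caput, by 1.08 on the log2 scale (caput minus IS -1.08, adjusted p = 2.25e-06 by edgeR). *Prmt5* was lower in ArKI by small amounts at an FDR below 0.05, with log2 fold changes of -0.22 in the caput (adjusted p = 0.00349) and -0.17 in the IS (adjusted p = 0.0393), both by edgeR. In the caput 6 of the 18 were tested and 1 was called, where 2.55% of all tested genes fell and 2.43% rose. There 3 of the 6 had an unadjusted p below 0.05 by edgeR, as did 37.7% of all tested genes. In the IS 6 were tested and none was called, where 4.04% of all tested genes were called. There too 3 of the 6 had an unadjusted p below 0.05 by edgeR, as did 39.7% of all tested genes. In the testis all 18 were tested and none was called, where 0.833% of all tested genes were called, and their median log2 fold change was -0.06. Of the 18, 3 had an unadjusted p below 0.05 by edgeR, as did 13.1% of all tested genes.

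The 15 genes of the microRNA and siRNA pathways, which act in all cells, differed from the members in where they were expressed. All 15 passed the filter in every tissue. Against the caput, 4 were higher and 4 lower in the WT testis, where 38.1% of all tested genes were higher and 31.2% lower. Their median log2 difference was 0.29. *Tarbp2*, a partner of Dicer (2.84), *Eif2c4*, the older symbol of *Ago4* (2.13), and *Tnrc6c* (2.13) were the highest, and *Snd1* (-3.05), *Eif2c1* (-2.29) and *Dicer1* (-1.64) the lowest. No gene of this list was called in ArKI mice in any tissue by edgeR, with 5 in the IS, 2 in the caput and 2 in the testis at an unadjusted p below 0.05, where the share of all tested genes was 39.7%, 37.7% and 13.1%. At an FDR below 0.05 *Drosha*, the nuclear microRNA processing enzyme, was higher by 0.26 in the ArKI IS and by 0.16 in the ArKI caput. *Dgcr8*, its partner, was higher by 0.20 in the caput, *Mov10*, the relative of *Mov10l1* in all cells, was higher by 0.32 in the IS, and *Snd1* (-0.19) and *Xpo5* (-0.15) were lower in the IS.

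Over the 26 samples the 3 genes most like each member by Pearson's r of log2(CPM + 0.5), among 16985 genes, mostly shared its split between testis and epididymis, so r is a description of that split. For *Piwil1* they were *Pdha2*, *Nlrp14* and *St8sia3* (0.9994 to 0.9991), for *Mael* *Allc*, *Hmgb4* and *Papolb* (0.998 to 0.9978), for *Ddx4* *Heatr8*, *Adam2* and *4930412F15Rik* (0.9978 to 0.9975), and for *Tdrd6* *Pabpc6*, *D1Pas1* and *Pom121l2* (0.9979 to 0.9968). For *Mov10l1* they were *1700008F21Rik*, *4921528O07Rik* and *Prss55* (0.9984 to 0.9982), for *Tdrd9* *Mtx1*, *Ptdss2* and *Phf7* (0.9976 to 0.997), and for *Tdrd7* *Rangap1*, *Ipo5* and *Dhx30* (0.9982 to 0.9981). For *Piwil2* they were *C2cd4b*, *Brd3* and *Tmsb10* (0.9937 to 0.9928), and for *Tdrd1* *Rab3il1*, *Mphosph9* and *Arsa* (0.9935 to 0.9918). For *Piwil4* they were *Tcea3*, *Pdrg1* and *Pdlim4* (0.9805 to 0.978). An r of 0.95 was reached by 176 genes with *Piwil4*, and by 3751 to 4585 genes with each of the 8 members other than *Piwil4* and *Tdrd1*.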

How the data were processed

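The authors sequenced 50 base single-end reads, aligned them to mm10 with STAR, counted uniquely mapped reads on RefSeq genes with Subread 1.5.1 and deposited the raw counts of 23337 genes and 26 samples with no normalization. The labels and the paper name different library kits, so strand specificity is unsure. The replicate numbers come from the labels. No column was left out, no row lacked a gene name, and no pair of samples looked like 1 library.

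Counts were tested in R 4.3.3 with edgeR 4.0.16 (filterByExpr with a minimum count of 10 and a total of 15, TMM, robust quasi-likelihood fit, Benjamini-Hochberg adjustment over all tested genes). Between genotypes the thresholds follow the study's methods, an FDR below 0.01 in the IS and the caput and below 0.2 in the testis, each with a fold change above 2. The epididymal threshold was also applied between tissues and, with no fold limit, to the interaction, and an FDR below 0.05 with no fold limit was added as a second rule. Standard errors are the log2 fold change over the root of the F statistic. ROTS, the study's test, was not run. Alternatives included limma 3.58.1 on voom values, DESeq2 1.42.0, other scalings and filters, a replicate block, an exon length trend and each replicate left out. The fits were tested on simulated data.

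Where all samples of a group had a count of 0, a fold was computed against 3 counts over the group. Intervals and floors cover counting error only. CPM of all 26 samples were scaled together, a choice made after seeing the data for the counts of groups that do not overlap. Exon lengths and positions come from GENCODE release 21 for the mouse (GRCm38), promoters from RefSeq. The members and gene lists were chosen with earlier results of these data known. The 10 members are named throughout, genes of the 2 other small RNA lists when past a rule between genotypes or among the 3 highest or lowest between testis and caput, and the 3 nearest genes of each member. *Tdkh* and *Spocd1* were not analysed here. The knocked-in gene is not reported here.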

Additional observations from a re-analysis of the deposited data

Results flagged for a closer look

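In 37 groups of 5 samples with any spread, 3 samples stood apart from the rest of their group by Dixon's criterion at the 95% level, where chance gives about 1 in 20, or 1.85 of 37. *Piwil1* had its only count of the ArKI caput in replicate 5 (gap over range 1). *Ddx4* had 0 counts in WT IS replicate 4, where the others had 5 to 9 (0.721), and 1 count in ArKI IS replicate 1, where the others had 3 or 4 (0.8). All 3 rest on 0 or 1 count. The ArKI effect on *Piwil2* was higher in the caput than in the IS, by 1.47 on the log2 scale in the interaction test, which passed an FDR below 0.05 (adjusted p = 0.0465 by edgeR) and not one below 0.01. The pass was lost in 16 of 20 fits with 1 sample left out, where the adjusted p rose to at most 0.0918, with limma (0.0742), with the replicate block (0.0546) and with library size only (0.0537), and kept with RLE scaling, every gene of 1 count and DESeq2 (0.0365 to 0.0483).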

How the results depend on the processing

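In the caput, the number of members called (4) stayed between 3 and 5 under other scalings, tools and samples, and was 0 under a minimum of 10 counts in every sample, where 3 members remained to be tested. Leaving out each replicate gave 3 to 4, and *Mael*, *Tdrd6* and *Ddx4* kept their calls each time. *Piwil2* lost its call with library size only (1.25, adjusted p = 0.0105) and limma (1.12, adjusted p = 0.0249). With every gene of 1 count or more *Piwil1* was called as well. In the IS the number was 0 with each replicate left out and became 1, *Mael*, with every gene of 1 count and with all epididymal groups in one fit. In the testis it was 0, and 0 to 1 with each replicate left out. Against the testis it was 10 of 10 under each alternative except the minimum of 10 counts in every sample, which left 1 member to test, called in both. For caput against IS it was 7, 6 to 7 with each replicate left out, 6 with limma and 0 of 1 with the strict filter. The interaction gave 0 throughout. The *Mael* interaction, 0.0012 on the log2 scale, changed sign with RLE (-0.0019), every gene of 1 count (-0.0054), limma (-0.77) and the replicate block (-0.0794), and ranged from -0.57 to 0.28 with each replicate left out. *Mael* in the testis became -0.0269 with the exon length trend removed and ranged from -0.0088 to 0.0352 with each replicate left out. *Ddx4* in the testis and *Piwil4* in the caput changed sign without 1 and 2 of the replicates and ranged from -0.0773 to 0.0045 and from -0.0380 to 0.2123. Same-numbered samples deviated together in part. In the WT IS and caput 3 of 5 pairs correlated at 0.111 to 0.178 and each IS sample correlated best with its own number, and the other 2 at -0.009 and 0.032. In the ArKI IS and caput the correlations ran from -0.106 to 0.186. No set of pairs was above 0.1 throughout and the labels do not name mice, so the main tests left the samples unpaired. The replicate block gave 4 calls in the caput, 0 in the IS, 0 in the testis and 6 for caput against IS, where *Mov10l1* was lost (2.71, adjusted p = 0.0146). Over all genes, the minimum of 10 counts in every sample left 350 calls in the IS (543 otherwise), 311 in the caput (683) and 75 in the testis (132). For testis against IS, 6308 genes were higher and 5066 lower, which scaling by upper quartile turned to 5443 and 6264, and for testis against caput 6242 and 5121 became 5384 and 6391. The tests on members with few counts kept their direction under pseudocounts of 1 and 0.1. The unadjusted p of *Mov10l1* and *Tdrd9* in the caput rose to 0.0794 to 0.0952 in 9 and to 0.0635 to 0.0794 in 7 of the cases with 1 replicate left out, and that of *Ddx4* in the IS fell to 0.0159 without WT replicate 4 and that of *Piwil2* in the IS to 0.0476 without ArKI replicate 3 (difference -0.37 in place of -0.21; exact permutation tests). In the epididymis, differences of members with under about 10 counts a sample rest on few counts, and the part of depth was not tested.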

Other observations

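Of the 18 other piRNA pathway genes 3 were lower and 3 higher in the WT caput than in the WT IS by the rule of FDR and fold, where 9.24% of all tested genes were lower and 11.4% higher. Besides *Tdrd5*, 2 other piRNA pathway genes were higher in the WT IS than in the WT caput at an FDR below 0.01 with more than 2-fold change, as *Piwil4* was. *Asz1*, a germ cell protein of the mitochondrial surface, had 10, 11, 17, 12 and 21 counts in the WT IS and 0, 1, 3, 3 and 1 in the WT caput (caput minus IS -3.13 on the log2 scale, SE 0.409, adjusted p = 4.52e-07 by edgeR). *4921515J06Rik*, the older symbol of *Henmt1*, the methyltransferase of piRNA ends, had a caput minus IS difference of -3.83 (SE 0.359, adjusted p = 7.03e-09 by edgeR). At an FDR below 0.05 *Prmt5* was also higher in the IS, at 88.9 to 101.7 CPM against 64.0 to 72.7 CPM (caput minus IS -0.44, adjusted p = 1.52e-07 by edgeR), and so was *Dnmt3l*, with 25 counts against 9 (-1.49, adjusted p = 0.0108 by edgeR). Higher in the caput were *Morc1*, with 22 counts in the IS and 103 in the caput (2.12, adjusted p = 6.9e-06 by edgeR), *Rnf17*, with 21 and 53 (1.24, adjusted p = 0.00354 by edgeR), and *Gpat2*, with 1 and 10. In percent of the WT testis the WT IS held 10.4% of *4921515J06Rik*, 5.015% of *Asz1* and 3.808% of *Tdrd5*. These genes were chosen after their values were seen.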
